A study of Mus musculus with 15 samples.

Results

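Mouse embryonic stem cells kept for 48 hours in 10 mM 2-deoxy-D-glucose (2-DG), the treatment the labels call high glycolysis inhibition, were compared with mock-treated cells. There were 3 samples of each kind among the 15 samples of the study. Every gene with at least 1 FPKM (fragments mapped to a gene, scaled to transcript length and to the library's mapped fragments) in at least 3 of the 15 samples entered the comparison, which left 13284 of 32152 genes, 11808 of them protein coding. All samples were C57BL/6 embryonic stem cells in knockout DMEM with fetal bovine serum, pyruvate, nonessential amino acids and leukemia inhibitory factor (LIF). The other groups were 2-DG at 5 mM and oligomycin, a blocker of the mitochondrial ATP synthase, at 1 nM and 10 nM, each for 48 hours and with 3 samples. The labels give neither the length of the mock treatment nor the name of the stem cell line, and they mention no feeder layer. Whether replicates were separate cultures is not stated either, so a p-value reflects sample-to-sample spread that may be technical.

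2-DG is a glucose analog without the hydroxyl group on carbon C-2. Hexokinase phosphorylates it, and the product is not carried further down glycolysis, so it accumulates and hinders hexokinase and phosphoglucose isomerase. 2-DG also resembles mannose and can be built into the lipid-linked sugar chains from which proteins in the endoplasmic reticulum (ER) are N-glycosylated. Cells answer unfolded proteins in the ER with the unfolded protein response, run by the sensors IRE1, PERK and ATF6, and PERK shares with other kinases the integrated stress response, in which phosphorylated eIF2 favors translation of the transcription factor ATF4. Mouse embryonic stem cells in serum and LIF hold a naive pluripotency network together with cells that are drifting toward the formative and primed states of the later epiblast.

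Depth, worked out from the steps between low FPKM values, ranged in M reads (M, mega) from 17.4 to 18.5 for mock libraries and from 18.0 to 19.2 for those with 10 mM 2-DG. Pearson correlations across genes, which are not independent replicates, were 0.9912 to 0.9938 within the mock group, 0.9918 to 0.994 within the 10 mM group and 0.968 to 0.9733 between them. The label of embryonic stem cells was met by Pou5f1, Sox2 and Nanog, all above 90 FPKM in each of the 6 samples. Markers of fibroblasts were abundant too, with a summed level over 25 genes of 2635 to 2735 FPKM in the mock samples and 2940 to 3160 FPKM with 2-DG. The 22 macrophage markers summed to 184.9 to 205.7 FPKM in the mock samples and 94.63 to 98.26 FPKM with 2-DG, and Lyz1 and Itgam were at 0 in all 6. In bulk RNA, fewer cells of a type and less RNA per cell cannot be told apart.

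With 10 mM 2-DG, ER stress and amino acid genes stood higher than in the mock samples, and genes of sterol synthesis and glycolysis stood lower. A gene was called where a linear model over all 15 samples (limma on log2(FPKM + 1), two-sided, Benjamini-Hochberg adjustment over the 13284 genes) gave an adjusted p under 0.05. In all, 6401 genes (48.2%) were called, 2845 higher (21.4%) and 3556 lower (26.8%), so a list with similar shares of its members up and down is at the background. The excess of lower calls turned over with median ratio scaling (3194 higher, 3170 lower) and with quantile normalization (3259 higher, 3160 lower). The median change over all genes was -0.03, on the log2 scale of FPKM + 1 that is used for every change here and that understates changes of low genes. Changes were mostly small. The central 90% of genes lay between -0.64 and 0.54, 107 genes (0.805%) rose at least 2-fold and 171 (1.29%) fell at least 2-fold.

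**Figure D1:**
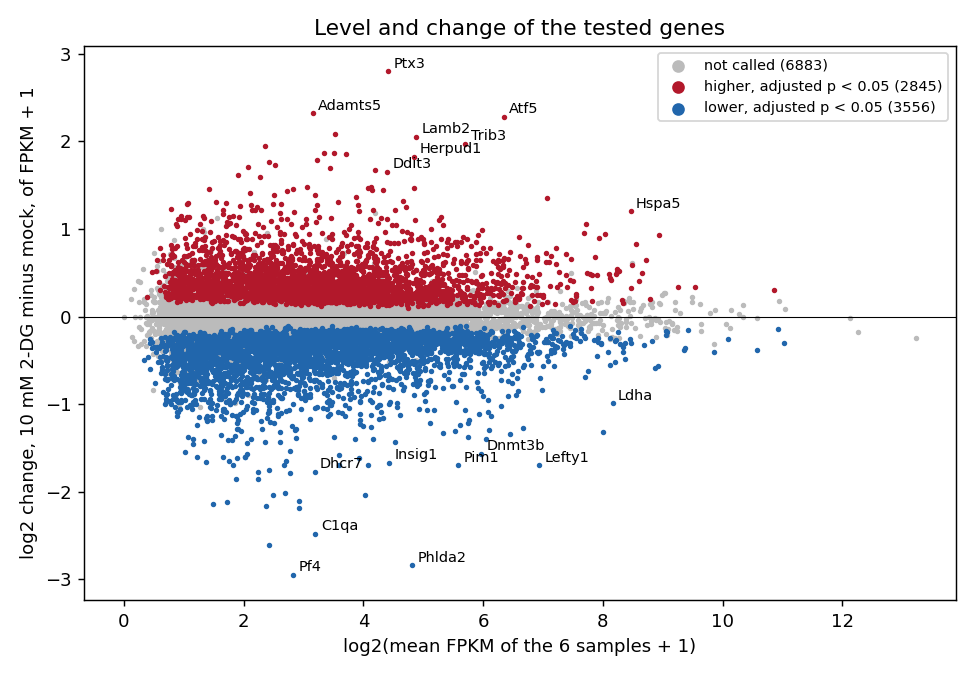
Each point is one of the 13284 tested genes, with the log2 of its mean FPKM + 1 over the 6 samples on the x axis and its log2 change with 10 mM 2-DG on the y axis. The 2845 genes called higher are red, the 3556 called lower are blue, and changes beyond 2 in size are few, with Ptx3 at 2.80 and Pf4 at -2.95 at the ends.

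The largest rise was that of Ptx3 (ENSMUSG00000027832, chromosome 3, 66219910 to 66225805 on GRCm38), which encodes a secreted pattern recognition protein of the extracellular matrix. Ptx3 was at 4.36, 3.90 and 4.89 FPKM in the mock samples and at 35.3, 37.8 and 36.1 FPKM with 2-DG, a log2 change of 2.80 ± 0.10 (SE) with limma adjusted p = 2.1e-10. The groups lay far apart, and the treated samples differed little from each other. Other genes of the matrix and of secretion stood among the 15 largest rises. The aggrecan-cleaving protease genes Adamts5 (2.32 ± 0.10) and Adamts1 (1.87 ± 0.07), neighbours on chromosome 16, rose together. Lamb2, a laminin chain of basement membranes, went from 10.6, 9.65 and 10.9 FPKM to 49.4, 47.3 and 42.4 FPKM, a change of 2.05 ± 0.07. Stc2, a secreted glycoprotein (1.79 ± 0.07), and Adm2, a peptide hormone of the calcitonin family (1.73 ± 0.12), also rose. The remaining leaders were the transcription factor genes Atf5 and Sox21, the pseudokinase gene Trib3, Herpud1 of ER-associated degradation, the keratin gene Krt42, the mitochondrial acyl-CoA thioesterase gene Acot2, the serpin gene Serpinb9b, Ttc17 and Ubap1l, between 1.69 and 2.28. Ttc17 overlaps the pseudogene Itpa-ps1.

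The largest fall was that of the platelet factor 4 gene Pf4. It was at 11.95, 11.71 and 10.97 FPKM in the mock samples and at 0.540, 0.721 and 0.611 FPKM with 2-DG, a change of -2.95 ± 0.08 (limma adjusted p = 4.7e-11). Also among the 15 largest falls were other genes of blood and immune cells, the chemokine gene Ccl6 (-2.61 ± 0.09), the complement genes C1qa (-2.48 ± 0.13) and C1qb (-1.75 ± 0.16), the mast cell protease gene Mcpt8 (-2.16 ± 0.15), the granzyme gene Gzme (-2.04 ± 0.15) and the gelatinase gene Mmp9 (-1.85 ± 0.09). Reads of Gzme may be shared with near-identical granzyme genes. Phlda2, an imprinted gene that restrains placental growth, was at 44.5, 47.9 and 53.2 FPKM and then at 5.46, 6.54 and 5.79 FPKM, a change of -2.84 ± 0.11. The formative-state transcription factor genes Tcf15 (-2.04 ± 0.16) and Pou3f1 (-1.78 ± 0.06), the testis cytochrome c gene Cyct (-2.19 ± 0.16) and Dhcr7, the enzyme of the last step of cholesterol synthesis (-1.77 ± 0.07), were of this group too. In each of these genes the 3 treated samples lay outside the mock range, which the choice of the leading genes required.

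Chaperones and folding enzymes of the ER were the most uniform group that rose. Of 24 members, 21 rose and 3 did not pass, against 21.4% of all genes rising, and their median change was 0.61. Hspa5 (ENSMUSG00000026864, chromosome 2, 34771970 to 34777547) encodes BiP, the main ER chaperone, which also holds the stress sensors inactive. It was at 214, 219 and 207 FPKM in the mock samples and at 462, 504 and 508 FPKM with 2-DG, 1.20 ± 0.07 with limma adjusted p = 1.4e-08. Every treated sample was more than 2 times above every mock sample. Hsp90b1, the ER member of the HSP90 family, rose from 135 ± 8.18 to 283 ± 22.2 FPKM (SD, n = 3), 1.06 ± 0.08, although the short transcript Gm15344 lies within it on the same strand. The disulfide isomerase gene Pdia4 (1.35 ± 0.06) and the BiP co-chaperone genes Dnajc3 (1.32 ± 0.06) and Dnajb9 (1.20 ± 0.09) had the other leading changes. The summed level of the 24 genes was 1875 to 1908 FPKM in the mock samples and 3239 to 3400 FPKM with 2-DG.

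Many ER chaperone promoters carry the ER stress response element, bound by NF-Y at its CCAAT end and by ATF6 or XBP1 at its CCACG end. An exact match to CCAAT and CCACG separated by 9 bases, on either strand, was searched in the 250 bases before each RefSeq start (GRCm38.p6). It was found in 15 of the 9378 tested genes with a promoter (0.16%), in 10 of 2119 genes called higher (0.472%) and in 1 of 2608 called lower (0.0383%). Among the ER chaperones 7 of 19 held it (36.8%), and 2 of 19 genes of ER-associated degradation. Other genes with a match were Alg12 and Pan2, called higher, Acacb, called lower, and Derl3, Hnrnpa3, Zfp57 and Adcy3, not called. Shown are stretches of the chaperone genes with a match and of Syvn1. They are written 5′ to 3′ in the direction of the element, with its ends in capitals.
Hspa5, chr2:34772020-34772049, plus strand: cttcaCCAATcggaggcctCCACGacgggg
Hsp90b1, chr10:86705632-86705661, minus strand: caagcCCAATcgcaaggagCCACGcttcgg
Dnajc3, chr14:118937822-118937851, plus strand: cacaaCCAATcagcgccaaCCACGacccgg
Calr, chr8:84847069-84847098, plus strand: tatgggCCAATgagggtcgaCCACGcgttg
Creld2, chr15:88819515-88819544, minus strand: tgtggaCCAATtgaggctcgCCACGagaag
Pdia6, chr12:17266486-17266515, plus strand: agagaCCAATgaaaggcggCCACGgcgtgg
Canx, chr11:50325794-50325823, minus strand: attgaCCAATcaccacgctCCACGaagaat
Syvn1, chr19:6046527-6046556, plus strand: cgcaaCCAATcggcggtagCCACGggaaca
The genes without values above were named for their match, whatever their change. Calr, a lectin chaperone, changed by 0.93, Creld2, a secreted ER stress protein, by 0.85, Pdia6 by 0.62 and Canx, the membrane-bound lectin chaperone, by 0.50, all past the test. Derl3, a gene of ER-associated degradation, also held the element and was at 0.20 (adjusted p = 0.074). Pdia4 and Herpud1, which rose more than any of the genes shown, did not hold these letters in this window. The element overlapped no other motif searched. A match is a description of the sequence and not a measured binding site.

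In ER-associated degradation, which pulls misfolded proteins back to the cytosol for the proteasome, genes of the membrane machinery rose. Of 26 measured members of the degradation and translocation list 13 rose and the other 13 did not pass, with a median of 0.18. Herpud1, a scaffold of the retrotranslocation complex, was at 12.4, 12.1 and 10.9 FPKM and then at 45.1, 46.3 and 40.8 FPKM, 1.82 ± 0.07 with limma adjusted p = 3.1e-10. Its groups lay far apart. Sel1l (1.07 ± 0.08) and Syvn1 (0.72 ± 0.05), the adaptor and the ubiquitin ligase of the same complex, the lectin gene Os9 (0.88 ± 0.05) and the channel gene Derl1 (0.58 ± 0.04) rose as well. Syvn1 overlaps Mrpl49 on the opposite strand, and whether reads were counted by strand is not given in the sources used here, so reads of such pairs cannot be told apart. The translocon genes Sec61a1, Sec61b and Sec61g, named after their values were seen, were at 0.10, 0.07 and -0.04 and did not pass. Of the 10 sensors and transcription factors of the response 6 rose, none by more than 0.47, with Xbp1 at 0.46 ± 0.05 and Atf6 at 0.37 ± 0.11, and Creb3l4 fell. The call of Atf6 is lost without mock replicate 3 (adjusted p = 0.052). FPKM per gene does not show the splicing of Xbp1 or the cleavage of Atf6.

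**Figure D2:**
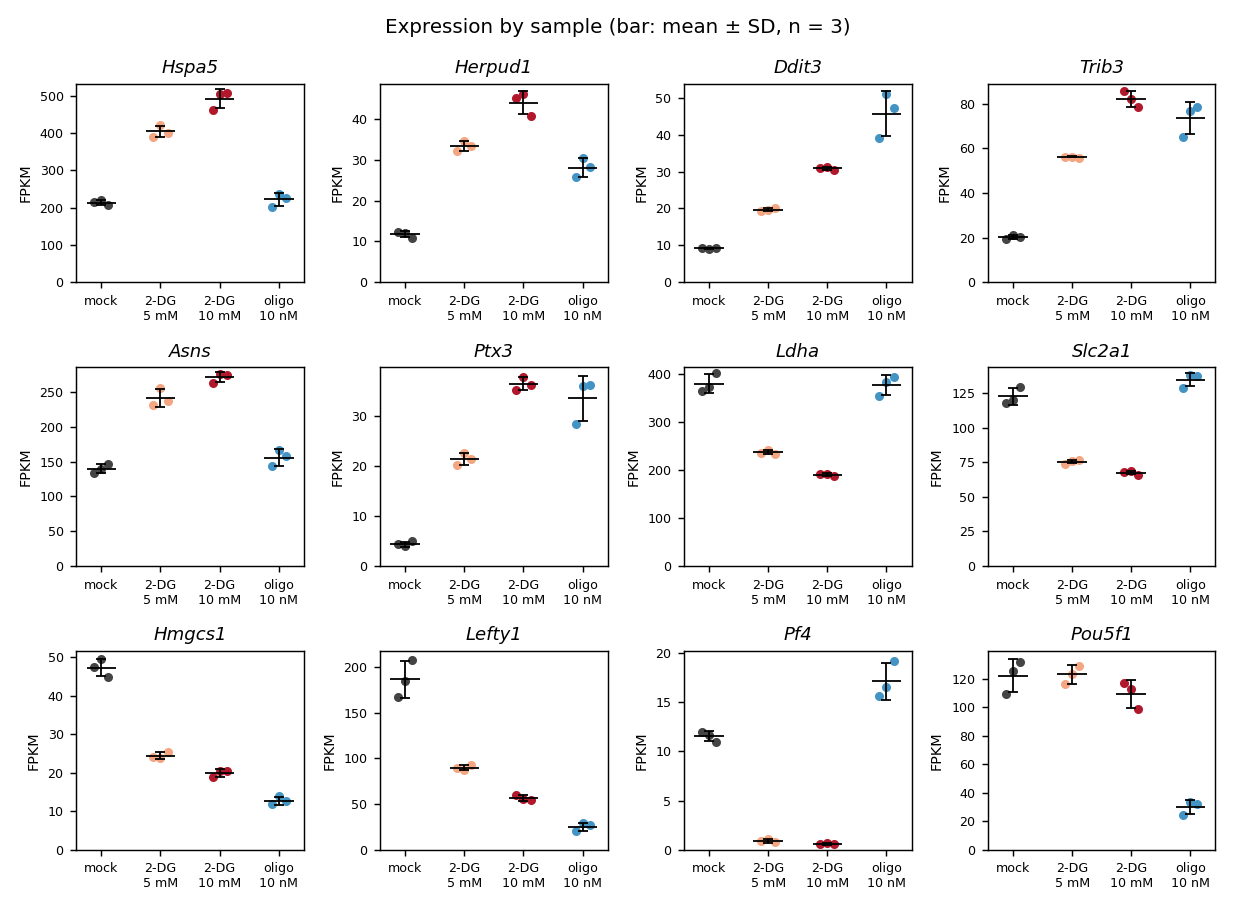
FPKM of 12 genes in each sample of the mock, 5 mM 2-DG, 10 mM 2-DG and 10 nM oligomycin groups, with points for samples and bars for the mean ± SD (n = 3); each y axis starts at 0. Hspa5, Herpud1, Trib3 and Asns are highest with 10 mM 2-DG, while Ldha and Slc2a1 are lowest there and Pou5f1 overlaps between the mock and both 2-DG groups.

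Genes of the integrated stress response had the largest median of all lists, 0.82, with 15 of 22 members higher and 3 lower. Atf5, a transcription factor gene under translational control like Atf4, was at 23.7, 25.5 and 31.3 FPKM in the mock samples and at 139, 132 and 129 FPKM with 2-DG, 2.28 ± 0.09 with limma adjusted p = 6.4e-10. Atf5 overlaps Nup62 on the opposite strand. Trib3, which feeds back on ATF4 and CHOP, was at 19.2, 21.3 and 20.1 FPKM and then at 85.7, 82.0 and 78.7 FPKM, 1.97 ± 0.06. Ddit3, which encodes CHOP, was at 9.14, 9.11 and 9.24 FPKM and then at 30.9, 31.2 and 30.4 FPKM, 1.65 ± 0.07. In all 3 genes the groups were separated by several times their own range, and Ddit3 shares its locus with Mars on the opposite strand. Atf4 itself rose by 0.94 ± 0.07, Atf3 by 1.27 ± 0.08 and Chac1, a glutathione-degrading enzyme gene, by 1.25 ± 0.05. The members that fell were Ddit4 (-0.71), an mTORC1 inhibitor, Bbc3 (-0.61), a pro-apoptotic BH3-only gene, and the kinase gene Eif2ak2 (-0.23). The PERK gene Eif2ak3 was at 0.02 and did not pass, and Eif2ak2 and Eif2ak3 were named after their values were seen.

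The C/EBP-ATF response element, to which dimers of ATF4 and C/EBP proteins bind, was searched as TGATGNAA in the same windows. It was in 225 of 9378 genes (2.4%), in 74 genes called higher (3.49%) and in 64 called lower (2.45%). Of the stress response genes 5 of 21 held it, of the amino acid and one-carbon synthesis genes 3 of 16, and of the cytosolic aminoacyl-tRNA synthetase genes 3 of 12. Examples from stress response, synthesis and transporter genes follow, with the fixed letters of the element in capitals and in its own direction.
Chac1, chr2:119351038-119351067, minus strand: cctggcaggagTGATGcAAcggcagggaag
Atf3, chr1:191183425-191183454, plus strand: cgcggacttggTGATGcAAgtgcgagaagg
Asns, chr6:7693214-7693243, minus strand: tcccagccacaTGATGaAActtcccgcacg
Slc7a11, chr3:50443661-50443690, minus strand: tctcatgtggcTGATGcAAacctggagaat
Fgf21, chr7:45615611-45615640, plus strand: gcctggacggaTGATGcAAtgggggggtct
Fgf21, a stress hormone gene named for its match, was at 0.16 and did not pass, and the transporter gene Slc7a7, named for its match too, held the element at 2 places and was at -0.19 (adjusted p = 0.012). The letters were thus found in genes called higher, called lower and not called. Slc7a11 held the element on both strands. Atf5, Trib3 and Ddit3 did not hold these letters in this window.

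Genes for the supply of amino acids and of charged tRNA rose in most members. In amino acid and one-carbon synthesis 12 of 20 rose and 6 fell, with a median of 0.45. Asns, the asparagine synthetase, was at 134, 140 and 146 FPKM in the mock samples and at 263, 276 and 274 FPKM with 2-DG, 0.95 ± 0.06 with limma adjusted p = 3.9e-08, and its groups lay far apart. The mitochondrial one-carbon genes Shmt2 (0.91 ± 0.05) and Aldh1l2 (1.28 ± 0.14) rose. Cbs, the entry enzyme of transsulfuration, fell by 1.32 ± 0.07. Of 20 amino acid transporters 12 rose and 5 fell, with a median of 0.35. The cationic amino acid carrier Slc7a1 rose from 9.83 ± 0.456 to 28.5 ± 1.23 FPKM, 1.44 ± 0.12, and the cystine carrier Slc7a11 from 0.887 ± 0.157 to 3.60 ± 0.115 FPKM, 1.29 ± 0.11. Slc38a7, Slc6a9 and Slc1a4, carriers of glutamine, glycine and small neutral amino acids, rose by 1.36, 1.15 and 1.12. Slc6a9 overlaps the more abundant B4galt2 on the opposite strand, so its value is uncertain. Of 20 cytosolic aminoacyl-tRNA synthetases 13 rose and 2 fell, with a median of 0.35, led by Sars (0.74 ± 0.07), Nars (0.68 ± 0.05) and Aars (0.64 ± 0.04).

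Genes of N-glycosylation, the process into which 2-DG can enter as a mannose analog, moved less than those of the chaperones. Of 37 measured genes of the dolichol-linked pathway and the oligosaccharyltransferase 17 rose and 4 fell, with a median of 0.17. The oligosaccharyltransferase genes Magt1 (0.68 ± 0.06) and Stt3a (0.50 ± 0.04) and the mannosyltransferase gene Alg2 (0.51 ± 0.06) rose, while Alg3 (-0.57 ± 0.11) and Alg8 (-0.44 ± 0.09) fell. Of 26 genes of the hexosamine pathway and nucleotide sugars 6 rose and 10 fell, with a median of -0.05, and without treated or mock replicate 3 only 6 fell. Pmm2, the phosphomannomutase that makes mannose-1-phosphate, was at 4.72, 4.85 and 4.81 FPKM and then at 9.60, 9.13 and 9.09 FPKM, 0.83 ± 0.08 with limma adjusted p = 1.3e-06, and it overlaps Tmem186. Ogt, which adds O-GlcNAc to proteins, rose by 0.85 ± 0.09 and Uap1l1 by 0.94 ± 0.08. The first enzyme of the hexosamine pathway moved in opposite directions in its 2 forms, with Gfpt1 at 0.30 ± 0.06 and Gfpt2 at -0.47 ± 0.05, both past the test.

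**Figure D3:**
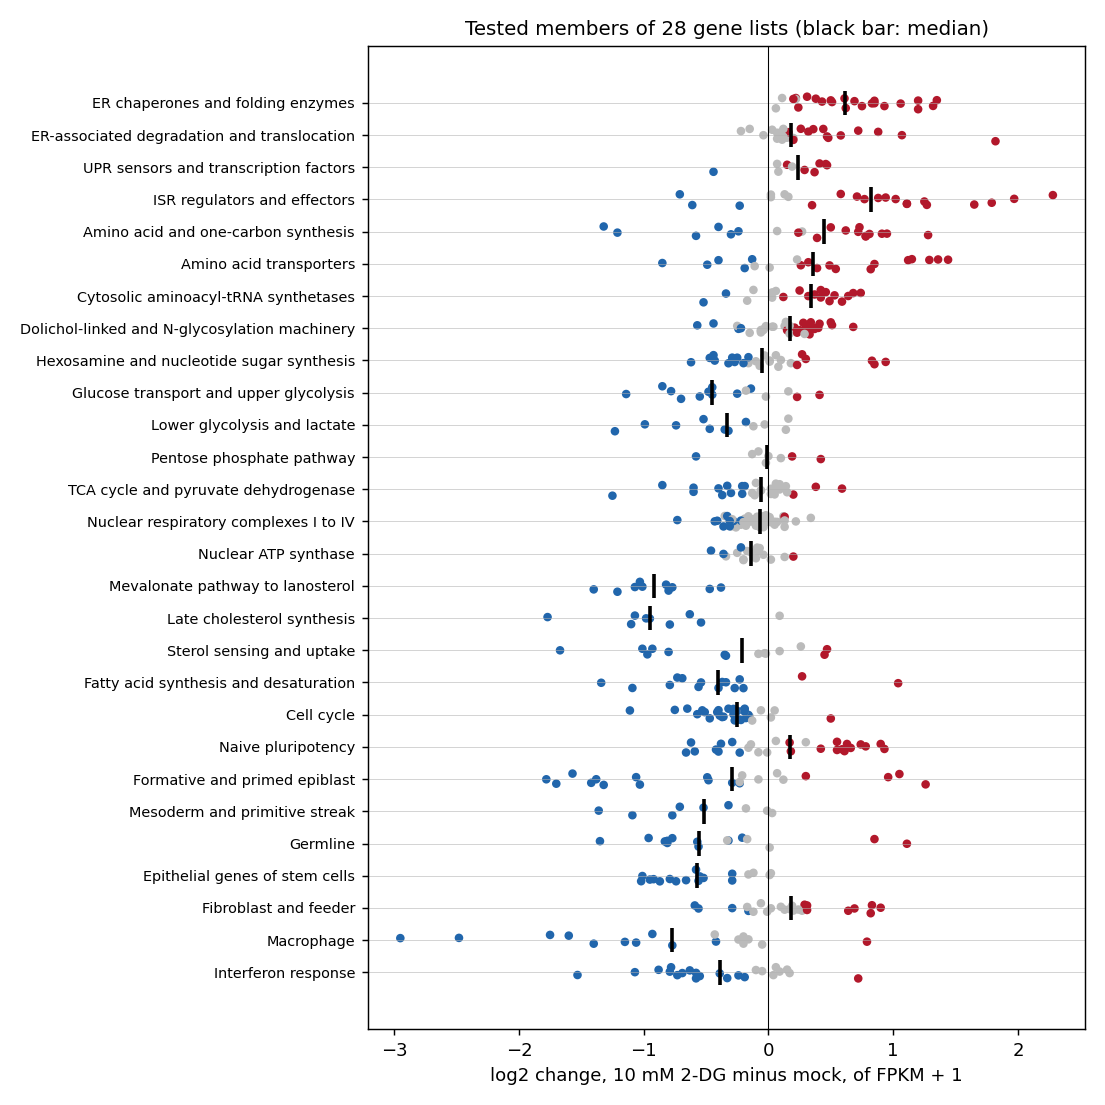
Log2 change with 10 mM 2-DG against mock (x axis) of every tested member of 28 gene lists, with red points for members called higher, blue for lower and gray for not called, and a black bar for the list's median. The medians run from -0.95 in late cholesterol synthesis to 0.82 in the integrated stress response.

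Genes of glycolysis, the pathway that 2-DG blocks, stood lower in most steps. Of 15 measured genes of glucose transport and upper glycolysis 10 fell and 2 rose, with a median of -0.45, and of 12 genes of lower glycolysis and lactate 8 fell and 4 did not pass, with a median of -0.33. In all genes 26.8% fell. Slc2a1, the main glucose transporter of these cells, was at 118, 120 and 130 FPKM in the mock samples and at 68.2, 68.4 and 66.0 FPKM with 2-DG, -0.85 ± 0.05 with limma adjusted p = 1.4e-08. Ldha, the lactate dehydrogenase subunit that favors lactate, was at 365, 374 and 404 FPKM and then at 192, 193 and 188 FPKM, -0.99 ± 0.06. The treated samples of both genes were tightly grouped and lay well under every mock sample. The lactate exporter gene Slc16a3 fell by 1.23 ± 0.08, and the hexokinase gene Hk2 by 0.45 ± 0.06. Pfkl (-0.78 ± 0.05), Pfkm (-0.55 ± 0.05), Aldoc (-1.14 ± 0.11), Tpi1 (-0.70 ± 0.06) and Pgk1 (-0.52 ± 0.05) fell too. The members that rose were Pfkp at 0.41 and Pfkfb3 at 0.23, named after their values were seen, and without treated replicate 1 a single member rose. Slc2a1 and Tpi1 overlap other genes of at most 6.98 FPKM on average.

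Pdk1, the kinase that shuts pyruvate dehydrogenase, fell from 21.4 ± 0.498 to 8.40 ± 0.268 FPKM, -1.25 ± 0.05. The hypoxia list holds targets of hypoxia-inducible factor together with the factor's own genes and a regulator of it. Of its 21 measured members 9 were lower and 5 higher, or 3 higher without treated replicate 1 or 3 or mock replicate 2. Bnip3, a mitophagy receptor, was at -0.93 ± 0.08, the prolyl hydroxylase gene Egln3 at -0.93 ± 0.07 and the growth factor gene Vegfa at 0.63 ± 0.05. The sensor factors MondoA and MLX answer to phosphorylated hexoses, 2-DG-phosphate included, and act on Txnip and Arrdc4. Arrdc4 was at 12.6, 13.0 and 11.6 FPKM and then at 27.5, 27.2 and 28.6 FPKM, 1.11 ± 0.05 with limma adjusted p = 1.6e-09. Txnip was at 46.9, 45.3 and 44.5 FPKM and then at 46.7, 48.5 and 48.9 FPKM, 0.07 ± 0.07 with adjusted p = 0.44. The arrestin genes thus differed, with separate groups in Arrdc4 and overlapping groups in Txnip. Mlxip, which encodes MondoA, was at -0.29 ± 0.09 and Mlx, which overlaps Psmc3ip on the opposite strand, at -0.28 ± 0.07, both past the test. The call of Mlxip is lost without treated replicate 3 (adjusted p = 0.065) or mock replicate 2 (0.062), and that of Mlx with the trend on gene length removed (0.053).

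Most nuclear genes of mitochondrial respiration were not called. Of 57 nuclear genes of complexes I to IV 1 rose and 9 fell, with a median of -0.07, of 17 ATP synthase genes 1 rose and 3 fell, and of 12 mRNAs of the mitochondrial genome 4 rose and 1 fell. The shares of calls in the nuclear lists lie under the 48.2% of all genes, and that of the mitochondrial mRNAs lies near it. All these counts moved with single libraries. Without mock replicate 3, 5 genes of complexes I to IV fell, and the single rise was lost on leaving out any 1 of the other 5 libraries. Without mock replicate 2, 1 ATP synthase gene fell. Without treated replicate 1 or 3 or mock replicate 2 or 3, 2 mitochondrial mRNAs rose. Many of these genes are short. In the shortest of 4 bins of exon length 11.8% of genes were higher and 26.5% lower. Whether length had a part in the counts of these lists was not tested. In the tricarboxylic acid cycle and pyruvate dehydrogenase list 3 of 29 rose and 11 fell, among them Idh3a (-0.60 ± 0.07) and Fh1 (-0.60 ± 0.07), while Idh2, the NADP-dependent isocitrate dehydrogenase, rose by 0.59 ± 0.06. Of 8 genes of the pentose phosphate pathway Pgd (0.42 ± 0.04) and H6pd (0.19 ± 0.07) rose and Tkt (-0.58 ± 0.05) fell. The call of H6pd is lost under the replicate block (adjusted p = 0.053) and without treated replicate 1 or 2 or mock replicate 2 or 3 (0.068 to 0.12).

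Genes of cholesterol synthesis fell along nearly the whole pathway. All 10 measured genes from acetyl-CoA to lanosterol fell, with a median of -0.91, and so did 8 of 9 genes after lanosterol, with a median of -0.95. Hmgcs1, which makes HMG-CoA, was at 47.4, 49.7 and 45.0 FPKM in the mock samples and at 18.9, 20.4 and 20.6 FPKM with 2-DG, -1.21 ± 0.06 with limma adjusted p = 8.2e-09. Dhcr7 was at 11.6, 13.2 and 14.5 FPKM and then at 3.49, 3.06 and 2.83 FPKM. Every treated sample of both genes lay far under every mock sample. Idi1, which isomerizes isopentenyl diphosphate, fell by 1.40 ± 0.10. Ebp, the isomerase that did not pass, was at 0.09 and was named after its value was seen. Insig1, which holds the sterol sensor in the ER, was at 31.7, 33.0 and 30.9 FPKM and then at 10.1, 8.90 and 9.04 FPKM, -1.67 ± 0.06. Srebf2, the master transcription factor of the pathway, fell by 0.97 ± 0.07. In the list of sterol sensing and uptake 7 of 14 fell, and Insig2 (0.47) and the lysosomal sterol exporter gene Npc1 (0.45), named after their values were seen, rose.

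The sterol regulatory element, searched as TCACNCCAC, was in 118 of 9378 promoters (1.26%). It was in 31 genes called higher (1.46%) and in 36 called lower (1.38%), so it was about as common in both. Of 7 mevalonate genes with a promoter only Hmgcs1 held it, shown here with the fixed letters in capitals.
Hmgcs1, chr13:119690204-119690233, plus strand: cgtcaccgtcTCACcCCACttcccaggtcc
None of the 8 late genes with a promoter held this exact form. Genes of fatty acid synthesis fell along with the sterol genes, in 13 of 15 members with a median of -0.40. The desaturase gene Scd2 fell from 125 ± 5.93 to 48.8 ± 0.849 FPKM, -1.34 ± 0.08, Scd1 by 1.09 ± 0.08, and Acaca, which makes malonyl-CoA, by 0.79 ± 0.09. The exceptions were Fads3 at 1.04 ± 0.06 and Elovl1 at 0.27, the latter named after its value was seen.

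The core of the pluripotency network stayed close to the mock level. Pou5f1 (ENSMUSG00000024406, chromosome 17, 35506018 to 35510772) was at 109, 126 and 132 FPKM in the mock samples and at 117, 112 and 98.4 FPKM with 2-DG, -0.16 ± 0.10 with limma adjusted p = 0.22. Sox2 was at 162, 176 and 176 FPKM and then at 158, 172 and 181 FPKM, -0.01 ± 0.09 with adjusted p = 0.96. The groups of both genes overlap. Nanog was at 191, 197 and 201 FPKM and then at 164, 164 and 173 FPKM, -0.23 ± 0.07 with adjusted p = 0.021, and this call is lost without mock replicate 2 or 3 or without treated replicate 1 or 2. Zfp42 was at -0.08 ± 0.06 and did not pass. The 27 naive genes, this core included, split, with 13 higher, 8 lower and a median of 0.17, and 5 lower without treated replicate 2. Their summed level was 2864 to 3076 FPKM in the mock samples and 2558 to 2630 FPKM with 2-DG. The orphan receptor gene Nr0b1 was at 38.5, 41.6 and 41.9 FPKM and then at 81.1, 78.3 and 76.2 FPKM, 0.93 ± 0.06. The naive factors Klf2 (0.78 ± 0.14), Tbx3 (0.74 ± 0.06) and Nr5a2 (0.66 ± 0.05) and the AKT coactivator gene Tcl1 (0.90 ± 0.12) rose. Dppa2, a chromatin protein gene, fell by 0.66 ± 0.07, and Utf1 (-0.62), Spp1 (-0.59) and Dppa4 (-0.42), named after their values were seen, fell as well.

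Genes of the formative and primed epiblast fell more often than they rose, 12 of 21 against 4, with a median of -0.29. Lefty1, a Nodal antagonist and Nodal target, was at 167, 185 and 208 FPKM in the mock samples and at 60.1, 55.2 and 54.4 FPKM with 2-DG, -1.70 ± 0.10 with limma adjusted p = 3e-08. The mock samples spread widely, and the lowest of them was still far above the treated ones. The de novo DNA methyltransferase gene Dnmt3b was at 92.3, 92.4 and 93.3 FPKM and then at 30.03, 29.53 and 32.29 FPKM, -1.57 ± 0.05, and Dnmt3a fell by 1.38 ± 0.06. The Nodal coreceptor gene Tdgf1 fell from 366 ± 5.67 to 146 ± 3.76 FPKM, -1.32 ± 0.06, and Pou3f1 and Sox3, transcription factor genes, fell by 1.78 ± 0.06 and 1.42 ± 0.13. The 4 genes that rose were Otx2 (1.26), a transcription factor gene of the same state, Foxd3 (1.05), the N-cadherin gene Cdh2 (0.96) and Sox4 (0.30), named after their values were seen. Otx2 stood at 1.23, 1.02 and 1.55 FPKM in the mock samples and at 4.41, 4.30 and 4.55 FPKM with 2-DG. Among all DNA methylation enzymes 6 of 16 fell and 3 rose. The maintenance cofactor gene Uhrf1 fell by 0.56 ± 0.05, the demethylase gene Tet2 rose by 0.59 ± 0.09, and Dnmt1, named after its value was seen, was at 0.00.

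Signaling genes of serum and LIF culture moved in both directions. In the Nodal, TGF-beta and BMP list 12 of 25 fell and 6 rose, and the BMP target genes Id2 (0.76 ± 0.09) and Id3 (0.70 ± 0.11) were among those that rose. Of 25 genes of the LIF-STAT3 and FGF-ERK pathways 10 rose and 10 fell. The STAT3 target and kinase gene Pim1 was at 68.6, 72.2 and 76.4 FPKM in the mock samples and at 21.8, 20.1 and 22.8 FPKM with 2-DG, -1.70 ± 0.06 with limma adjusted p = 2e-10. Socs3, the STAT3 feedback inhibitor, fell by 0.99 ± 0.06, and the ERK feedback gene Spry4 and the ERK target Etv4 by 0.98 ± 0.06 and 1.06 ± 0.07. The phosphatase gene Dusp4 went the other way, 0.98 ± 0.11. Stat3 and the receptor gene Il6st, named after their values were seen, rose by 0.46 and 0.40.

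Markers of other lineages moved in both directions. Of 9 measured mesoderm and primitive streak genes 6 fell and 3 did not pass, with Cdx1 at -1.36 ± 0.10, Fgf8 at -1.09 ± 0.11 and Wnt3 at -0.77 ± 0.09, and 9 others were under the level filter. All were low, and none reached a mean of 5 FPKM. The 18 listed genes summed to 19.72 to 21.51 FPKM in the mock samples and 9.808 to 10.57 FPKM with 2-DG. Of 14 primitive endoderm genes 8 rose and 3 fell. Sox7 went from 0.678 ± 0.289 to 3.13 ± 0.0733 FPKM, 1.31 ± 0.11, while the other named risers were basement membrane genes, Lama1 (0.59 ± 0.09), Lamb1 (0.47 ± 0.07) and Col4a2 (0.49 ± 0.08), which fibroblasts also express. In the trophectoderm list 6 of 12 fell and 3 rose, and in neuroectoderm 5 of 11 each way. Epithelial genes of stem cells fell in 14 of 18 members, and the other 4 did not pass. The keratin genes Krt8 (-1.02 ± 0.07) and Krt18 (-0.95 ± 0.07), the tight junction genes Ocln (-1.01 ± 0.10) and Cldn7 (-0.92 ± 0.09) and the E-cadherin gene Cdh1, named after its value was seen (-0.52), fell.

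Macrophage markers mostly fell and fibroblast markers moved both ways, and the part of other cell types in the changes above was not tested. Of 24 measured fibroblast markers 8 rose, 4 fell and 12 did not pass, with a median of 0.18. Among all genes 21.4% rose and 26.8% fell, and the split of the fibroblast list is not read as a result about it. The collagen cross-linking enzyme gene Lox rose from 169 ± 15.0 to 316 ± 12.6 FPKM, 0.90 ± 0.09, and the intermediate filament gene Vim by 0.64 ± 0.06. The smooth muscle actin gene Acta2 was at 567, 577 and 588 FPKM in the mock samples and at 392, 397 and 383 FPKM with 2-DG, -0.56 ± 0.05, so abundant members of this list moved in opposite directions. Col1a1 was at 0.17 ± 0.07 (limma adjusted p = 0.061). Of 17 measured macrophage genes 10 fell and 1 rose, with a median of -0.77. Lyz2, the macrophage lysozyme, went from 95.1 ± 5.86 to 35.4 ± 1.28 FPKM and C1qc from 5.13 ± 0.649 to 1.02 ± 0.257 FPKM. Cd68 (-0.05), Csf1r (-0.24) and Adgre1 (-0.20), named after their values were seen with Laptm5, did not pass, and Laptm5 rose by 0.79. Of 23 measured interferon response genes 15 fell and Ifitm1 rose (0.72), joined by 1 more without treated replicate 3, with a median of -0.39, and Ifit3 (-1.53 ± 0.08) and Isg15 (-1.07 ± 0.12) fell most.

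Cell cycle genes fell in 27 of 34 members, mostly by little, with a median of -0.25. The G1/S cyclin gene Ccne1 was at 78.7, 81.3 and 87.7 FPKM in the mock samples and at 36.85, 38.43 and 37.97 FPKM with 2-DG, -1.11 ± 0.06 with limma adjusted p = 5.3e-09. The replication licensing genes Cdc6 (-0.75 ± 0.07), Mcm4 (-0.57 ± 0.06) and Mcm6 (-0.53 ± 0.04) fell, and Ccnd2, named after its value was seen, rose by 0.50. Of 23 p53 response genes 11 fell and 5 rose, or 3 without treated replicate 3 or mock replicate 2 or 3. Trp53 was at 0.24 ± 0.07 (adjusted p = 0.01, lost without mock replicate 1), and its target Cdkn1a at 0.07 ± 0.06 did not pass. The pro-apoptotic target Pmaip1 fell from 76.1 ± 3.61 to 28.8 ± 2.19 FPKM, -1.37 ± 0.07.

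The 10 mM group was then set directly against 5 mM, to see what the higher dose added. Of all genes 779 (5.86%) were called, 453 higher (3.41%) and 326 lower (2.45%), and the single called change of at least 2-fold (0.00753%) was the fall of Phlda2. Phlda2 was at 14.8, 14.6 and 14.1 FPKM with 5 mM and at 5.46, 6.54 and 5.79 FPKM with 10 mM, a difference of -1.16 (limma adjusted p = 0.00035). Of the 22 stress response genes 10 were higher at 10 mM, among them Ddit3 by 0.62, Atf5 by 0.59 and Trib3 by 0.54, and of the 24 ER chaperones 8 were higher, with Dnajc3 at 0.43 and Hspa5 at 0.28. Ptx3 was higher by 0.74, Adamts5 by 0.75 and the intermediate filament gene Prph by 0.76. Lower were Tcf15 (-0.86), Dnmt3b (-0.70) and Lefty1 (-0.66), with 8 of 21 formative genes called, 6 of 10 mevalonate genes and 8 of 34 cell cycle genes. No naive pluripotency gene was called between the doses, with a median difference of -0.09 over 27. Of 23 interferon genes 6 were higher at 10 mM. Leaving out any library cut the calls by more than 1.5 times. Without 10 mM 2-DG replicate 1, 2 or 3 there were 469, 273 and 426 calls, and without 5 mM replicate 1, 2 or 3 there were 393, 343 and 393.

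The 10 mM group was also set directly against 10 nM oligomycin, the higher dose of the mitochondrial inhibitor. The difference holds the changes of both treatments. The median change of naive genes against mock was 0.17 with 2-DG and -1.92 with oligomycin, and that of fibroblast markers 0.18 and 1.25. Both cholesterol lists had lower medians than mock with either inhibitor. With 2-DG and oligomycin these were -0.91 and -1.29 for mevalonate genes, and -0.95 and -0.66 for late cholesterol genes. The direct difference was larger than the difference from mock, with 9411 genes called (70.8%), 5003 higher with 2-DG (37.7%) and 4408 lower (33.2%). At least 2-fold higher were 823 genes (6.2%) and at least 2-fold lower 617 (4.64%). Naive pluripotency genes were higher with 2-DG in 26 of 27 members, with a median difference of 1.83. Pou5f1 was at 24.7, 33.8 and 32.1 FPKM with oligomycin, 1.83 below 10 mM 2-DG on the log2 scale. Dppa3 was higher with 2-DG by 3.15 and the hormone gene Trh by 3.81, although neither was called against mock, at 0.30 and 0.15. Cell cycle genes were higher with 2-DG in 30 of 34 members. Hspa5 was at 203, 237 and 226 FPKM with oligomycin, and 10 mM 2-DG was higher by 1.15, with 17 of 24 ER chaperones called higher and 5 lower. The stress response list did not part the inhibitors in this way. Of its 22 genes 8 were higher with 2-DG and 11 lower, with Atf5 higher by 0.97, Trib3 by 0.16, Ddit3 at -0.54 and Ptx3, of no list, at 0.12 and not called. Asns was higher with 2-DG by 0.80, and 16 of 20 aminoacyl-tRNA synthetase genes were higher. Ldha and Slc2a1 were lower with 2-DG, at -0.98 and -0.99. Fibroblast markers were lower with 2-DG in 22 of 24 members, with Acta2 at -2.60, and Pf4 at -3.48.

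**Figure D4:**
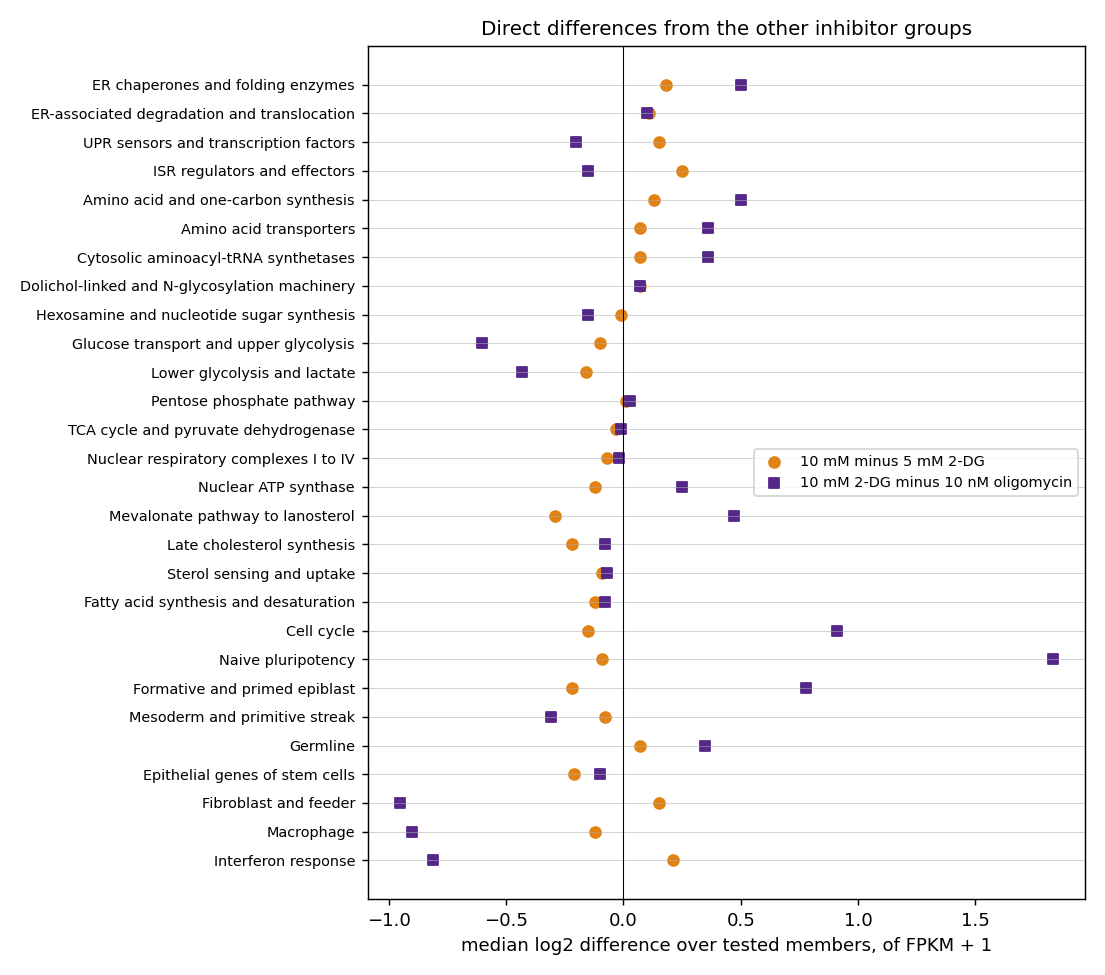
Median log2 difference over the tested members of 28 gene lists (x axis), for 10 mM minus 5 mM 2-DG (orange circles) and for 10 mM 2-DG minus 10 nM oligomycin (purple squares). The circles lie between -0.29 and 0.25, and the squares run from -0.95 for fibroblast markers to 1.83 for naive pluripotency genes.

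Calls leaned on gene length. Genes were split by exon length into 4 bins of like size. In the shortest bin (27 to 2265 bases) 11.8% were higher and 26.5% lower, and in the longest (6431 to 41155 bases) 28.4% were higher and 20.2% lower. Deviations of mock replicates 1 and 3 from their group ran with exon length, with Spearman's rho of 0.36 and -0.35 across 13275 genes, while the 10 mM replicates lay between -0.14 and 0.12. With the trend on exon length removed from each sample, a setting added after seeing the data, the shares were 19.5% and 21.1% in the shortest bin and 26.2% and 26.4% in the longest. ER chaperones then rose in 23 of 24 members, both cholesterol lists gave the same counts as before, and respiratory complex genes were 6 higher and 10 lower.

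**Figure D5:**
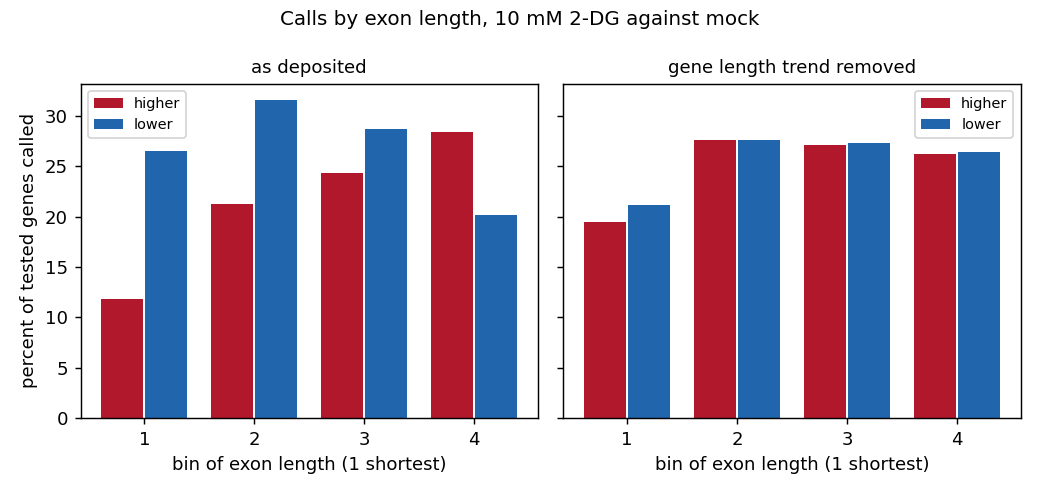
Percent of tested genes called higher (red) and lower (blue) with 10 mM 2-DG against mock (y axis) in 4 bins of exon length (x axis, bin 1 the shortest), as deposited (left) and with the length trend of each sample removed (right). The share called higher climbs from 11.8% to 28.4% as deposited and only from 19.5% to 26.2% without the trend, with 27.6% in bin 2.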

How the data were processed

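RNA libraries of 15 samples in 5 labelled groups of 3 were sequenced on an Illumina HiSeq X. The authors deposited FPKM values, 1 per gene and sample; HISAT2 2.1.0, Bowtie2 2.2.3, HTSeq 0.6.0 and GRCm38 are named per the submitters' processing notes, without roles. The table held 32152 genes and 1 line without a gene, which was left out; 26 symbols turned into dates were restored by identifier. Annotation was GENCODE M21, promoters RefSeq GRCm38.p6; protein sequences were not used here, and a few items are not reported here. FPKM steps gave whole reads, within 0.05, for 95.4% to 96.1% of low values, and with exon lengths the depth; counting error was not modelled apart from replicate spread. log2(FPKM + 1) was fitted with limma 3.58.1 in R 4.3.3 (1 mean per group, eBayes with a trend); the code was tested on simulated data. Members and 45 gene lists were chosen with earlier results of these data known. Named are the 15 largest changes each way (called, mean of at least 5 FPKM in a group, all 3 treated samples outside the mock range, no predicted genes, ribosomal or small RNAs or pseudogenes), up to 5 called members per list, 8 each way for direct comparisons, and 29 fixed genes; any other is said to be chosen after its value was seen or for a motif. Alternatives were pseudocount, filters, scaling, length trend, block and left-out replicates.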

Additional observations from a re-analysis of the deposited data

How the results depend on the processing

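The count of genes called between 10 mM 2-DG and mock was within 1.5 times of 6401 under every alternative run except a filter at a mean of 5 FPKM, where 3974 were called, 1886 higher and 2088 lower, since fewer genes were tested. That filter also lowered the calls against 10 nM oligomycin to 5891, with 2474 lower. With a pseudocount of 0.1 in place of 1, 240 genes rose and 460 fell at least 2-fold against mock, by construction, since a smaller pseudocount widens changes of low genes. Leaving out a replicate gave 5458 to 5830 calls against mock. Against 5 mM it gave 273 to 469 calls, 155 to 267 higher and 118 to 202 lower. Removing the length trend raised the 5 mM comparison to 1182 calls, with 531 lower; the cause was not tested. Same-numbered 10 mM and mock samples did not deviate together (correlations -0.02, 0.03 and -0.09), and no 10 mM sample correlated best with the mock sample of its own number. Whether same-numbered samples shared a culture or day is not stated. These correlations cannot decide it, since differences between libraries enter them too. The replicate block gave 6218 calls against mock, 597 against 5 mM and 9333 against oligomycin. Higher genes were 44.4% of calls against mock, 50.2% with median ratio scaling and 50.8% with quantile normalization. No gene called against mock was of the other sign under an alternative. Of the list medians under alternatives 102 moved by more than the replicate spread and 338 did not, and those of at least 0.1 in size kept their sign, while smaller ones did not always. Among 236 named genes 15 lost their call under some setting and 2 gained one (Col1a1 at 0.21 with median ratio scaling, Cdkn1a at 0.11 without the length trend). Low FPKM, the unknown strand handling and 3 samples a group limit precision.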

Other observations

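Lysosome and autophagy genes stood higher in 16 of 30 members and lower in 3 (1 without treated replicate 2 or mock replicate 3), against 21.4% of all genes higher, with a median of 0.21. The lysosomal membrane gene Lamp1 rose by 0.71 ± 0.05 (limma) and the autophagy receptor gene Sqstm1 by 0.69 ± 0.06. Antioxidant genes split, with 8 of 27 higher and 5 lower (3 without treated replicate 1 or 3 or mock replicate 2 or 3), and the glutathione transferase gene Gstm1 at 0.89 ± 0.07 and the heme oxygenase gene Hmox1 at 0.60 ± 0.05. Cytosolic heat shock genes gave 7 higher and 5 lower of 20, with the small chaperone gene Cryab at 0.91 ± 0.09 and the abundant Hspa8 at -0.40 ± 0.07. Of 19 genes of AMPK and the brakes on mTORC1, 6 rose and 4 fell, with the folliculin gene Flcn at 0.59 ± 0.07. Without treated replicate 1 only 2 of them rose, and without mock replicate 2 or 3 only 3. Among all genes 21.4% were higher and 26.8% lower. The splits of the antioxidant, heat shock and AMPK lists are not read as results about their members.

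Germline genes fell in 10 of 15 measured members, with the meiosis genes Stra8 at -1.35 ± 0.13 and Sycp3, which overlaps Chpt1, at -0.96 ± 0.13, while the X-linked homeobox genes Rhox6 (1.11 ± 0.15) and Rhox9 (0.85 ± 0.10), which are close copies of each other, rose. Of 21 imprinted genes 7 rose and 5 fell, against 21.4% of all genes higher and 26.8% lower. This split is not read as a result about the imprinted list. Nnat, which lies within Blcap, was at 15.4, 17.5 and 18.2 FPKM in the mock samples and at 5.60, 5.74 and 3.88 FPKM with 2-DG, -1.58 ± 0.11, and the growth-restraining gene Cdkn1c fell by 0.93 ± 0.14, while Dlk1 rose by 0.94 ± 0.08. The 14 genes of the 2-cell-like state lay under the level filter, with a sum of 0.776 to 1.605 FPKM in the mock samples and 0.5852 to 0.7442 FPKM with 2-DG. Of 10 endothelial genes 3 were measured, with Tek at 0.52 ± 0.07 and Pecam1 at -0.24 ± 0.07, a call lost without treated or mock replicate 1 (limma adjusted p = 0.066 and 0.058). By class, 22.8% of protein coding genes were higher and 28.1% lower, and among 185 lincRNAs 11.4% were higher and 29.2% lower.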
